A study of Rattus norvegicus with 6 samples.

Results

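Interleukin-6 (Il6), its signal transducer Stat3 and the STAT3 target genes Socs3 and Myc were examined in 6 rat RNA libraries. The 4 genes were taken by Ensembl identifier (Il6 ENSRNOG00000010278, Stat3 ENSRNOG00000019742, Socs3 ENSRNOG00000002946, Myc ENSRNOG00000004500), by a rule that uses no measured value, and 4 of 4 were among the 20159 genes of the expression table. Polyadenylated RNA had been sequenced from 3 libraries labelled primary keratinocyte progenitors and 3 labelled Limbal niche, all of Rattus norvegicus, with tissue given as ratonis epidermis for both. Keratinocyte progenitors divide to renew the epidermis, and the limbal niche is made of the cells around the stem cells of the corneal epithelium. The study asked whether niche-derived signals turn keratinocyte progenitors towards a corneal epithelial fate, and its title names the STAT3 and PI3K/AKT pathways. Its design describes culture on Matrigel in keratinocyte serum-free medium (KSFM) with EGF and pituitary extract, in KSFM mixed with medium conditioned by limbal niche cells, or in supplemented hormonal epithelial medium mixed with that conditioned medium. The labels do not tie a library to a medium, and they give no strain, animal age or pooling. Whether the second group holds niche cells or keratinocytes exposed to their medium is therefore not stated here. Markers of either cell type were not examined, because the table lists genes by identifier and 0 of the identifiers were paired with symbols by the reference used.

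Interleukin-6 family cytokines bind a receptor that contains the gp130 subunit, and receptor-bound JAK kinases then phosphorylate STAT3, which dimerises and enters the nucleus to act as a transcription factor. Socs3 is a rapidly induced target whose product blocks the same receptor and kinase, closing a negative feedback loop, and Myc is a target that drives growth and proliferation. In epithelia the pathway is known from wound repair and from the maintenance of progenitor cells. STAT3 activity is set by phosphorylation of the protein, which RNA levels do not measure. Il6 RNA likewise does not measure cytokine supplied in a medium, and other ligands of the pathway were not examined.

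The library totals used for scaling, recovered from the deposited values, were 17678076 to 18237668 reads, and the depth of counted reads was thus nearly equal. Of these totals 99.3% to 99.4% lay in the listed genes, so they do not give the reads sequenced. Keratinocyte progenitor 2 and 3 were nearly alike, with a Pearson correlation of 0.995 across genes, where the other library pairs lay between 0.883 and 0.968. 2 libraries did not group by label. Keratinocyte progenitor 1 correlated best with limbal niche 2 and 3 (0.962 and 0.968), and limbal niche 1 with keratinocyte progenitor 2 and 3 (0.925 and 0.931). Limbal niche 3 was closer still to keratinocyte progenitor 2 and 3 (0.939 and 0.933). With the remaining libraries limbal niche 1 correlated at 0.883 to 0.887, so it lay apart from most libraries rather than within the other group. Values are therefore also given without libraries 1 of both groups where a result rests on them. The labels call the samples biological replicates but do not name separate animals or cultures, so p-values measure only the spread between these samples.

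The stretch upstream of the outermost annotated start is shown for the ligand and the transducer, as the sequence context of a gene that was barely detected and of one that was abundant. Both sequences are RefSeq sequences of the rat build GRCr8 on the minus strand, written 5′ to 3′ in the direction of the gene, and capitals mark the motifs TGACGTCA (the cAMP-response element) and GGGNNTTTCC (an NF-kB site).
Il6, chr4:5894576-5894825: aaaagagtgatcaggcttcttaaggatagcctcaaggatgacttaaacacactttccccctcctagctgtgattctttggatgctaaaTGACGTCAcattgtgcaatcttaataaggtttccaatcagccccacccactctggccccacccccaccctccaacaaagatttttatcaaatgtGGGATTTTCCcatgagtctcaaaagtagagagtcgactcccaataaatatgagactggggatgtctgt
Stat3, chr10:86363514-86363609: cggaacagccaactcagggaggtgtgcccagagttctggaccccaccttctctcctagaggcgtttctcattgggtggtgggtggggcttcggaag
The Il6 stretch held 1 match to TGACGTCA, beginning 162 bases before the start site, and 1 match to GGGNNTTTCC, beginning 68 bases before it. These motifs were present on either strand in 1.83% and 1.53% of 33469 rat promoter windows of 300 bases. The STAT motifs TTCNNNGAA and TTCNNNNGAA, searched on both strands, occurred in 8.87% and 7.28% of those windows and had 0 matches in the 300-base windows of Il6, Stat3 and Socs3. The windows of Stat3 and Socs3 are placed at start sites 154 and 1207 bases inside the outermost start of the gene, so for Socs3 the window covers no sequence upstream of the gene. These matches are descriptions of letters and not of binding.

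Il6, the ligand, was close to the limit of detection in both groups. Its level was 0.0534, 0.159 and 0.0539 FPKM in keratinocyte progenitor 1, 2 and 3. In limbal niche 1, 2 and 3 it was 0.0541, 0.210 and 0.0530 FPKM. FPKM, the authors' unit, scales reads by gene length and by the library total. These levels stand for 1, 3 and 1 reads and for 1, 4 and 1 reads. The groups overlapped, and 4 of the 6 libraries held a single Il6 read. Summed over libraries there were 5 reads in keratinocyte progenitors and 6 in limbal niche, a ratio of limbal niche to keratinocyte progenitors of 1.20 with an exact 95% interval from 0.304 to 4.95, which covers counting error only. With a mean of 0.0972 FPKM over the 6 libraries Il6 lay under the minimum of 1 FPKM for testing. In the fit of all genes without that minimum its log2 fold change on the log2(FPKM + 1) scale was 0.021 with a 95% interval from -0.16 to 0.20 (limma, Benjamini-Hochberg adjusted p = 0.958). The sign turned without keratinocyte progenitor 1 (-0.0025), keratinocyte progenitor 3 (-0.0021) or limbal niche 2 (-0.046). A difference in Il6 between the groups was not detectable at this depth. Between 19.7% and 30.7% of all genes had a lower value than Il6 in a library.

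Stat3, the transducer, was well expressed and did not separate the groups. Keratinocyte progenitor 1, 2 and 3 had 58.5, 44.5 and 41.8 FPKM of Stat3. The limbal niche libraries 1, 2 and 3 had 33.4, 47.0 and 58.9 FPKM. The highest library of each group reached about the same level, and the lowest of all was limbal niche 1. The mean was 48.2 ± 8.96 FPKM over the keratinocyte progenitor libraries and 46.4 ± 12.7 FPKM over the limbal niche libraries (SD, n = 3 per group). The log2 fold change, limbal niche over keratinocyte progenitors, was -0.074 with a standard error of 0.25 and a 95% interval from -0.68 to 0.53 (limma, adjusted p = 0.953, adjusted over 12085 genes). Its sign turned without keratinocyte progenitor 1 (0.070) and without limbal niche 1 (0.14), and with both left out the value was 0.28 (limma, adjusted p = 0.249). It also turned with median-of-ratios scaling (0.0039). In RNA taken from many cells at once, the share of cells that carry a transcript and its amount per cell cannot be told apart, for any of these genes.

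The spread of Stat3 lay between libraries of the same label and exceeded counting error. Each value rests on 2617 to 4708 reads, and the exact 95% counting intervals ran from 40.3 to 43.2 FPKM in keratinocyte progenitor 3 and from 56.8 to 60.2 FPKM in keratinocyte progenitor 1. Stat3 was 1.40-fold higher in keratinocyte progenitor 1 than in keratinocyte progenitor 3 and 1.76-fold higher in limbal niche 3 than in limbal niche 1. The standard deviation of log2(FPKM + 1) within groups was 0.25 in keratinocyte progenitors and 0.40 in limbal niche, against medians of 0.23 and 0.32 over the tested genes. Stat3 was thus about as variable within groups as the typical gene.

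**Figure D1:**
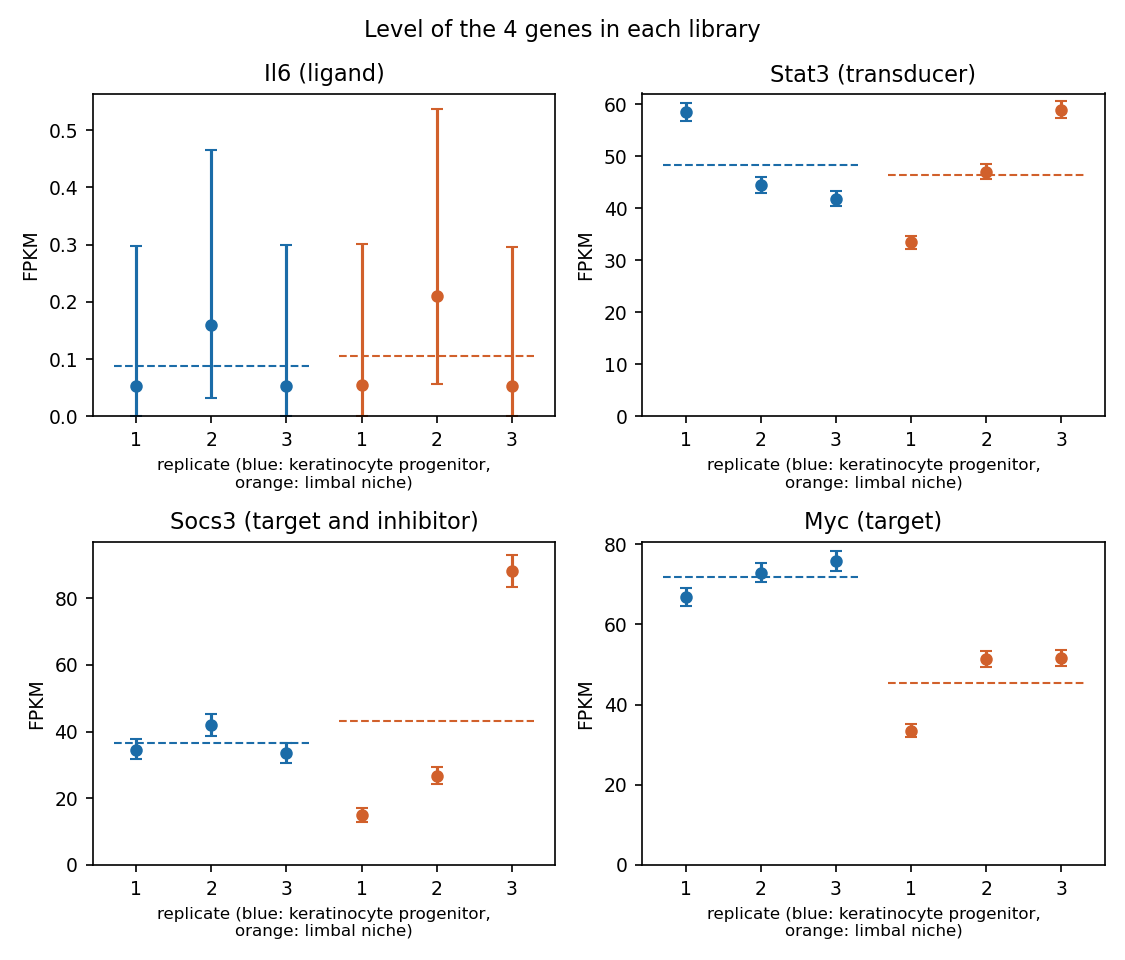
FPKM of Il6, Stat3, Socs3 and Myc (y axis, starting at 0, a different scale for each gene) in each replicate (x axis) of keratinocyte progenitors (blue) and limbal niche (orange). Points are the deposited values, bars are exact 95% Poisson intervals of the recovered reads, and dashed lines are group means; Myc is the gene whose groups do not overlap, and Socs3 in limbal niche 3 stands at 88.1 FPKM.

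Socs3, the feedback inhibitor, varied more among the limbal niche libraries than between the groups. Keratinocyte progenitor 1, 2 and 3 had 34.6, 41.9 and 33.5 FPKM of Socs3. The limbal niche libraries 1, 2 and 3 had 14.9, 26.8 and 88.1 FPKM. Limbal niche 3 lay above every other library, while limbal niche 1 and 2 lay below all keratinocyte progenitor libraries, so the groups overlapped. Means were 36.7 ± 4.57 FPKM for keratinocyte progenitors against 43.3 ± 39.3 FPKM for limbal niche (SD, n = 3 per group). The limbal niche mean was higher in FPKM, yet the log2 fold change was negative at -0.14 with a standard error of 0.59, since the log scale gives less weight to the high value of limbal niche 3. Its 95% interval ran from -1.55 to 1.27 (limma, adjusted p = 0.959), a half-width of 1.41 against a median of 0.60 over the tested genes. Without limbal niche 3 the value was -0.84 (limma, unadjusted p = 0.0318, adjusted p = 0.551), without limbal niche 1 it was 0.41, without limbal niche 2 it was 0.0046, and without libraries 1 of both groups it was 0.37 (adjusted p = 0.668).

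Limbal niche 3 and limbal niche 1 differed 5.92-fold in Socs3, with an exact 95% counting interval from 5.14 to 6.84. These 2 values rest on 1372 and 227 reads. Between the same libraries, 2.66% of the 12085 tested genes differed at least as far in either direction on the log2(FPKM + 1) scale. The standard deviation of Socs3 within limbal niche was 1.27 on that scale, higher than in 95.6% of the tested genes, whereas within keratinocyte progenitors it was 0.17 and higher than in 37.0%. Even in the nearly alike keratinocyte progenitor 2 and 3, Socs3 was 1.25-fold higher in the former (95% counting interval 1.11 to 1.41), and 6.28% of genes differed as far between them.

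The level of Socs3 carries a limit from its gene model. The shortest length that turns its 6 values into whole reads is 863 bases, where the RefSeq gene spans 3397 bases including introns. Reads outside the model used by the authors are not in the value, and its level per kilobase relative to the other genes depends on that model. The corresponding lengths were 1045 bases for Il6, 4428 for Stat3 and 2691 for Myc.

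Myc, the growth-promoting target, was the member with the widest separation between groups, and it was lower in each limbal niche library than in each keratinocyte progenitor library. Its 3 keratinocyte progenitor values were 66.8, 72.9 and 75.7 FPKM. Its limbal niche values, for libraries 1, 2 and 3, were 33.5, 51.3 and 51.6 FPKM. The groups did not overlap, with a gap from 51.6 to 66.8 FPKM. Non-overlapping groups were found for 11.9% of the 12085 tested genes, and 7.26% were lower in limbal niche in this way, so this pattern in 1 of 3 tested members is shared by 877 genes in all. Group levels were 71.8 ± 4.58 FPKM and 45.5 ± 10.4 FPKM (SD, n = 3 each), or 1.58-fold higher in keratinocyte progenitors.

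The log2 fold change of Myc was -0.67 with a standard error of 0.21 and a 95% interval from -1.18 to -0.16. It did not pass the test (limma, unadjusted p = 0.0168, Benjamini-Hochberg adjusted p = 0.793). Of all tested genes, 0% passed at an adjusted p under 0.05, the lowest adjusted p being 0.786, and 5.85% had an unadjusted p under 0.05. By unadjusted p Myc ranked 198 of 12085. The median log2 fold change of the tested genes was -0.056, and relative to it Myc was at -0.62. An exact two-sided permutation test over the 6 libraries gave p = 0.1, the smallest p that 3 libraries against 3 allow, against p = 1 for Stat3, p = 0.8 for Socs3 and p = 0.8 for Il6.

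Myc was lower in limbal niche, without overlap of the groups, under all 5 scalings tried (as deposited, median-of-ratios, without the 50 most abundant genes, TPM and quantile). Under these scalings 10.7% to 12.1% of the tested genes had groups without overlap, and 5.89% to 8.37% were lower in limbal niche in this way. The call itself depended on the libraries that do not group by label. Without libraries 1 of both groups the log2 fold change was -0.52 and passed (limma, adjusted p = 0.0461), in a fit that called 14.9% of the tested genes, 7.75% as lower in limbal niche. That fit was chosen with earlier results known and leans on the nearly alike keratinocyte progenitor 2 and 3, so it is no separate support. Without keratinocyte progenitor 2 or 3 the log2 fold changes were -0.66 and -0.63 with unadjusted p of 0.0539 and 0.0609 (limma, adjusted p above 0.999 in both).

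**Figure D2:**
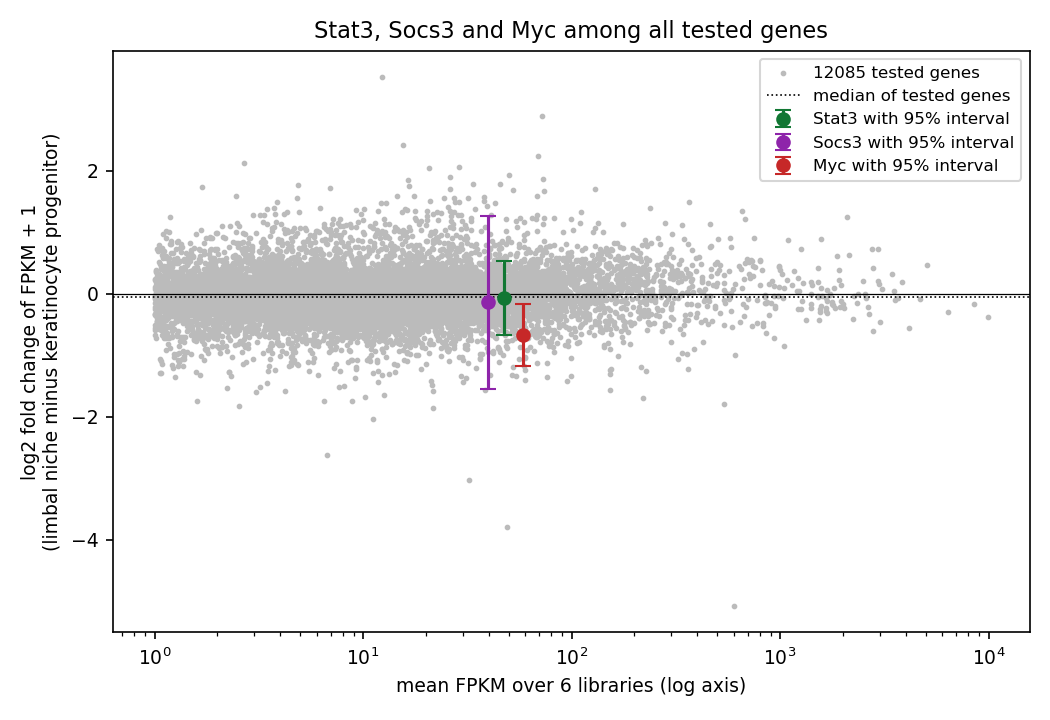
Log2 fold change of FPKM + 1, limbal niche minus keratinocyte progenitor (y axis), against mean FPKM over the 6 libraries (x axis, log scale) for the tested genes (grey points). Stat3, Socs3 and Myc are coloured with their 95% limma intervals; the interval of Myc, from -1.18 to -0.16, does not reach 0, and those of Stat3 and Socs3 do.

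Myc, Stat3, Socs3 and Il6 ranked by FPKM in this order in 5 of the 6 libraries, and limbal niche 3 had Socs3 first, then Stat3, then Myc. An order between genes depends on the gene lengths used for FPKM, for Socs3 above all. In keratinocyte progenitors Myc was highest, and its lowest library, at 66.8 FPKM, was above the highest Stat3 value of 58.5 FPKM. Stat3 came next and Socs3 after it, and the ranges of these 2 genes overlapped slightly. In limbal niche the ranges of the 3 genes overlapped, and Stat3 and Myc in limbal niche 1 were at 33.4 and 33.5 FPKM. Their means lay between 43.3 and 46.4 FPKM, but that of Socs3 rests on limbal niche 3, since limbal niche 1 and 2, at 14.9 and 26.8 FPKM, were below Stat3 and Myc in the same libraries. Il6 was last in each library. The mean levels of Stat3, Socs3 and Myc were higher than those of 84.1%, 81.0% and 87.2% of the tested genes.

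Whether target and transducer moved together was read from their difference within each library, which library scaling moves little for genes far above the pseudocount of 1 FPKM, as Stat3, Socs3 and Myc were. Socs3 minus Stat3, on the log2(FPKM + 1) scale, was -0.74, -0.083 and -0.31 in keratinocyte progenitor 1, 2 and 3 and -1.12, -0.79 and 0.57 in limbal niche 1, 2 and 3. Only in limbal niche 3, of the 6 libraries, was Socs3 above Stat3 in FPKM, an order that depends on the gene lengths used. The group means were -0.38 ± 0.33 and -0.44 ± 0.90 (SD, n = 3 each), and they differed by -0.066 (exact two-sided permutation p = 0.9). The sign of that small difference turned without keratinocyte progenitor 2 (0.081), limbal niche 1 (0.27) or limbal niche 2 (0.11).

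Myc minus Stat3 was 0.19, 0.70 and 0.84 in keratinocyte progenitor 1, 2 and 3 and 0.0040, 0.12 and -0.19 in limbal niche 1, 2 and 3. In FPKM, Myc was thus above Stat3 in each keratinocyte progenitor library and near it in limbal niche, and the groups did not overlap. The gap was narrow, from 0.12 in limbal niche 2 to 0.19 in keratinocyte progenitor 1. Group means were 0.58 ± 0.34 and -0.020 ± 0.16 (SD, n = 3 each), a difference of -0.60 (exact two-sided permutation p = 0.1, the smallest possible, and 0.3 after adjustment over the 3 differences to Stat3). For 7.42% of the other tested genes the difference to Stat3 did not overlap between the groups, and for 1.67% it was lower in limbal niche. Il6 minus Stat3 is close to the negative of Stat3, since Il6 was near 0, and so it moves with library scaling. It differed between groups by 0.095 (exact permutation p = 0.8), or by 0.16 with a pseudocount of 0.1.

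**Figure D3:**
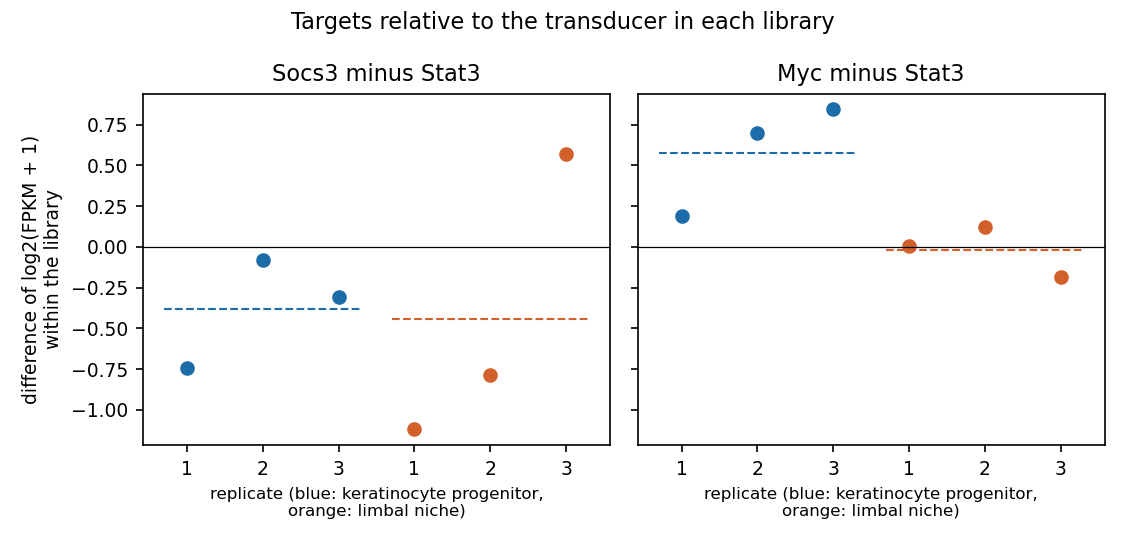
Difference of log2(FPKM + 1) between Socs3 and Stat3 (left) and between Myc and Stat3 (right) in each replicate of keratinocyte progenitors (blue) and limbal niche (orange), with group means as dashed lines. The line at 0 marks equal FPKM, which depends on the gene lengths used. Socs3 exceeds Stat3 in limbal niche 3 alone, at 0.57, and Myc minus Stat3 is higher in each keratinocyte progenitor library than in each limbal niche library.

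Within limbal niche the 3 expressed members ranked the libraries alike. Stat3, Socs3 and Myc were each lowest in limbal niche 1 and highest in limbal niche 3, although Myc in limbal niche 2 and 3 differed by less than counting error (ratio 1.01, 95% interval 0.951 to 1.06). The ratio of limbal niche 3 to limbal niche 1 was 1.76 for Stat3, 5.92 for Socs3 and 1.54 for Myc. The median of the tested genes between these libraries was 0.034 on the log2(FPKM + 1) scale. With the sign kept, the differences of Stat3, Socs3 and Myc exceeded those of 87.2%, 98.9% and 82.1% of genes. In either direction, 24.2%, 2.66% and 33.8% of genes differed at least as far, so Stat3 and Myc did not stand out. Limbal niche 1 is also a library that did not group by label.

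Within keratinocyte progenitors the members did not share an order. Stat3 was highest in keratinocyte progenitor 1 and lowest in keratinocyte progenitor 3, Myc had the opposite order, and Socs3 was highest in keratinocyte progenitor 2. Myc in keratinocyte progenitor 2 and 3 differed by less than counting error (ratio 1.04, 95% interval 0.991 to 1.09). So did Socs3 in keratinocyte progenitor 1 and 3 (ratio 0.970, 95% interval 0.857 to 1.10). Over the 15 pairs of libraries Stat3 and Socs3 differed in the same direction in 12, Socs3 and Myc in 10, and Stat3 and Myc in 7. Pairs share libraries, so these counts are descriptions, and no correlation between members is given because the libraries fall into clusters. The ligand could not be placed in any order, since 4 of its 6 values are single reads.

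Among the tested genes the pattern most like that of Stat3 over the 6 libraries was ENSRNOG00000018765, with a Pearson correlation of 0.999 of log2(FPKM + 1). The pattern most like that of Myc was ENSRNOG00000059538, with 0.997. The former had 27.8, 20.7 and 19.5 FPKM in the keratinocyte progenitor libraries. Its limbal niche values were 14.9, 21.9 and 28.3 FPKM. The gene most like Myc was at 57.0, 65.3 and 67.5 FPKM in keratinocyte progenitors, with 29.8, 47.2 and 46.5 FPKM in the limbal niche libraries in the same order. These correlations are descriptions over the same clustered libraries. Each was the highest of 12084 correlations over 6 libraries, and 1.35% of genes reached 0.95 with Stat3, 0.654% with Socs3 and 0.405% with Myc.

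**Figure D4:**
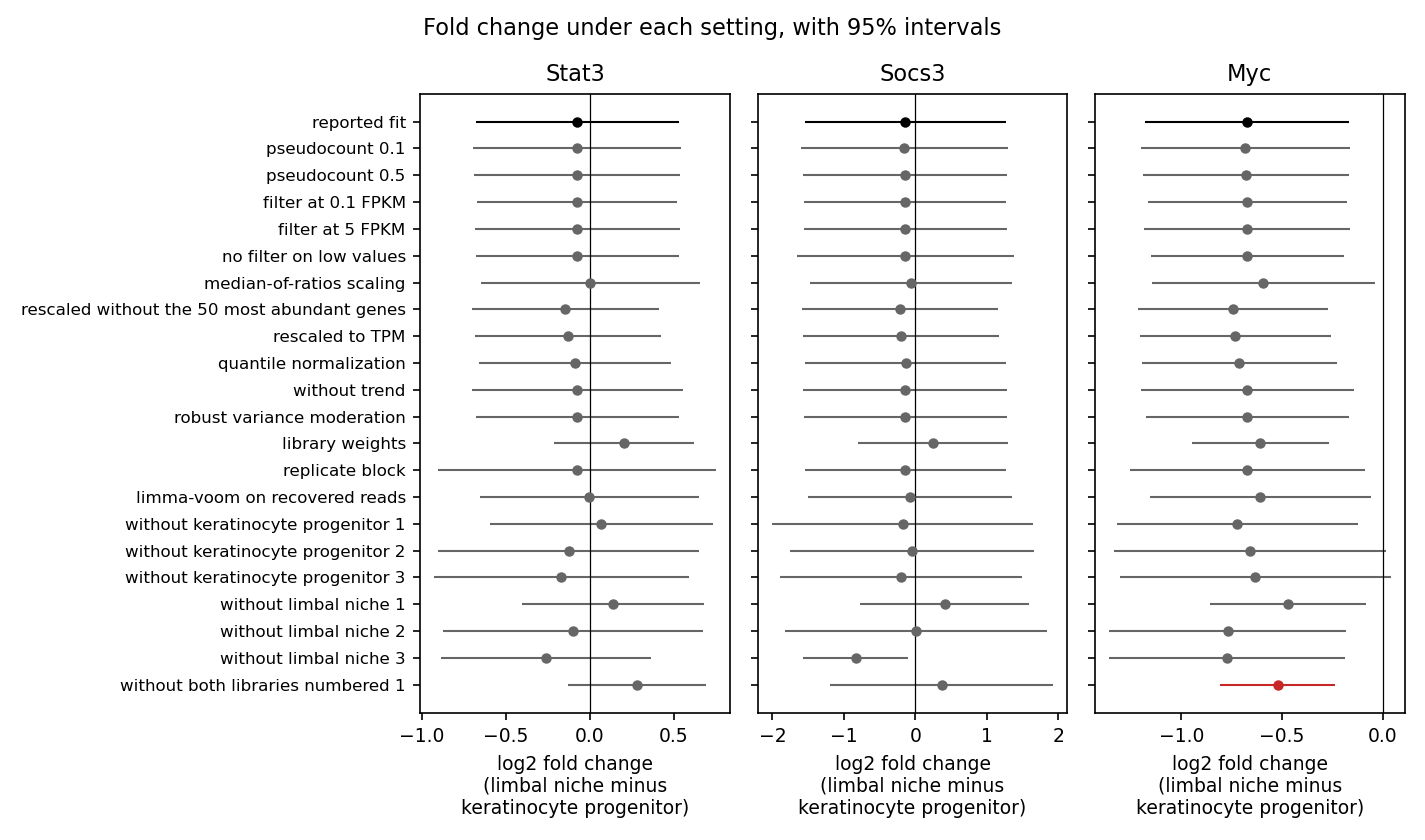
Log2 fold change, limbal niche minus keratinocyte progenitor (x axis), of Stat3, Socs3 and Myc with 95% intervals under the reported fit (black) and 21 alternative settings (y axis); red marks an adjusted p under 0.05. Myc is negative in each setting, from -0.77 to -0.47, and passes without libraries 1 of both groups, while Stat3 and Socs3 take either sign.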

How the data were processed

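The authors deposited 1 table of FPKM values with 1 column per library, and columns were matched to samples through the column names in the labels. FastQC, Trim Galore and DESeq2 are listed without versions, per the submitters' processing notes. For the aligner, counter, annotation, build and strand, the tool or setting is not given in the sources used here. FPKM removes depth and gene length but not shifts in composition.

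FPKM values were whole reads divided by a length and a total. Totals were the commonest shared divisor of the low values, and each length the smallest that gave whole reads (absolute tolerance 1e-09 or relative 1e-12), which 20159 of 20159 genes met. In simulated data 98.6% of 3000 genes were recovered exactly. Intervals from reads cover counting error only.

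The test was limma 3.58.1 (R 4.3.3) on log2(FPKM + 1) with group as the only term, a variance trend and Benjamini-Hochberg adjustment, over the 12085 genes whose mean reached 1 FPKM. This scale understates changes of low genes. On simulated reads for these genes it called 48 of 50 genes changed 2-fold at a dispersion of 0.02 and 0 of 50 at 0.2, where it called 49 of 50 changed 8-fold. It also called 15 and 11 unchanged genes at these dispersions. The simulated libraries were independent, without the clusters seen in the real ones, and the dispersion of the real data was not estimated. The simulation therefore does not give the power for these libraries. For each member, the group means of log2(FPKM + 1) and of the difference to Stat3 within libraries were compared by exact permutation tests. Alternatives were other pseudocounts, filters, scalings and variance models, library weights, a replicate block, limma-voom with TMM factors on recovered reads, and left-out libraries.

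The members, lists and tests were chosen with earlier results of these data known. By rule, the gene most like each member was to be named, at most 2 per direction. Lists of pathway genes and cell type markers by symbol were not used, because 0 of 47357 reference genes carry an Ensembl identifier. The pairing of the 4 symbols with identifiers was taken as given. Sequences are from RefSeq, where 3 of 4 members had a promoter entry.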

Additional observations from a re-analysis of the deposited data

How the results depend on the processing

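Myc kept its negative sign in 21 of 21 alternatives, and 20 also kept it outside the threshold. Many of these could not have turned the sign. Filters, variance models and the replicate block leave the estimate as it is. Groups without overlap also keep their sign under another pseudocount, library weights or left-out libraries. Only the scalings and limma-voom could have turned it. Myc passed without both libraries numbered 1, at -0.52, and leaving out 1 library gave -0.77 to -0.47. Stat3 changed sign in 5 of 21 alternatives, with median-of-ratios scaling (0.0039), library weights (0.20), without both libraries numbered 1 (0.28), and within a range of -0.26 to 0.14 when 1 library was left out. Socs3 changed sign in 4 of 21, with library weights (0.25), without both libraries numbered 1 (0.37), and within -0.84 to 0.41 when 1 library was left out. Il6 ran from -0.046 to 0.066 with 1 library left out and changed sign in 3 of 18; filters at 0.1 and 5 FPKM remove it. Library weights were 8.90 and 7.48 for keratinocyte progenitor 2 and 3 and at most 0.72 for the others. The difference to Stat3 without both libraries numbered 1 was 0.088 for Socs3, -0.25 for Il6 and -0.80 for Myc (exact permutation p = 0.333 for Myc). With 1 library left out it ran from -0.57 to 0.27 for Socs3, -0.085 to 0.31 for Il6 and -0.79 to -0.46 for Myc. The cause of these changes was not tested. The count of called genes was 0, but 11 without a filter, 1804 without both libraries numbered 1, and 0 to 2 with 1 library left out. The replicate block, with the replicate number as a term, cannot change the estimates, because both groups hold the same numbers. They stayed at -0.67 for Myc, -0.14 for Socs3, -0.074 for Stat3 and 0.021 for Il6. The block called 0 genes, with limma adjusted p = 0.988 for Myc. Same-numbered libraries deviated in opposite directions (correlations of -0.48, -0.35 and -0.25). Libraries 1 of both groups do not group by label, so these correlations cannot decide whether the numbers pair samples. Depth limits Il6, at 11 reads in all; the other 3 genes had at least 227 reads per library.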
